A study of Citrus maxima with 12 samples.

Results

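The 54 genes described here stood at least 1 log2 unit higher in diseased than in control fruit of the pomelo (Citrus maxima) cultivar Taoxi, while diseased fruit of the cultivars Jinlan and Jinsha stayed below a ceiling set on that same Taoxi control. They were selected on measured values: group means were taken as log2(mean FPKM + 1), where FPKM, a level per gene length, relates the fragments of a gene to its length and to the total of its library. A member exceeded the Taoxi control by 1 or more in diseased Taoxi, stayed less than 0.5 above it in diseased Jinlan and in diseased Jinsha, had a mean of 3 FPKM or more in diseased Taoxi, and had an ID starting with Cg. The control of this rule was the mean of Taoxi controls 2 and 3. Taoxi control 1 was left out. Of 32863 IDs in the table, 30123 start with Cg, 440 of those met the rise and the level, and 54 (12.3% of the 440) also stayed under both ceilings.

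RNA was sequenced from fruit in a study of black spot disease of Jinggang honey pomelo. The libraries fall into 4 groups of 3, namely control and diseased fruit of Taoxi, and diseased fruit of Jinlan and of Jinsha. The labels number the libraries of a group as replicate biosamples, but give no fruit age, time or inoculum for a sample. They leave unsaid whether these biosamples come from different fruits or trees. A p-value here therefore reflects library-to-library spread, and how far that spread is biological or technical is not given. Healthy fruit of the other cultivars was not analysed here, so "raised" is defined within Taoxi alone: a gene under the ceiling could still differ between diseased and healthy fruit of its own cultivar, and the effects of cultivar and of disease cannot be told apart there.

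Plants meet a fungal attack on a fruit with broad changes of transcription. Textbook parts of that answer are receptors at the cell surface, transcription factors of families such as WRKY and MYB, secreted pathogenesis-related proteins such as chitinases, and phenylpropanoid enzymes, which make lignin precursors and flavonoids. The files do not pair their IDs with gene names or sequences, so none of the 54 can be placed in these classes, and members are given by ID, by level and by pattern.

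Library sums ran from 560349 to 577783 FPKM, with 21345 to 22431 IDs above 0, and the read depth behind a value is unknown. Taoxi control 1 stood apart from its group. Across the 17421 genes past a filter on low values (at least 3 of the 12 libraries with 1 FPKM or more), its mean Pearson correlation was 0.975 with diseased Jinlan, 0.960 with diseased Jinsha, 0.912 with diseased Taoxi and 0.891 with the other Taoxi controls, which correlated at 0.992 with each other. Genes are not independent replicates, so these coefficients are descriptions. All 54 members passed the filter, and 42 would have passed it without the diseased Taoxi libraries.

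In the map of all members by library, the diseased Taoxi columns are the high ones by construction, and the other cultivars divide the members into blocks. Of the 54, 24 lay within 0.5 of the Taoxi control in both Jinlan and Jinsha, 18 lay 0.5 or more below it in both, 8 only in Jinlan and 4 only in Jinsha. For those 18, mean FPKM was lower in the other cultivars than in Taoxi controls 2 and 3, but for 5 of them the diseased Jinlan mean was above Taoxi control 1. At 1 or more below the control in both cultivars were 10 members (18.5%), against 7.10% of the 16274 Cg IDs past the filter. The 16274 IDs include those at 0.5 or more above the control, where the rule allowed no member. The larger share among the members was thus fixed in part by their choice, and nothing is read from it. Fruit tissue was sequenced in bulk, where fewer cells of a type and less RNA per cell cannot be told apart.

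**Figure D1:**
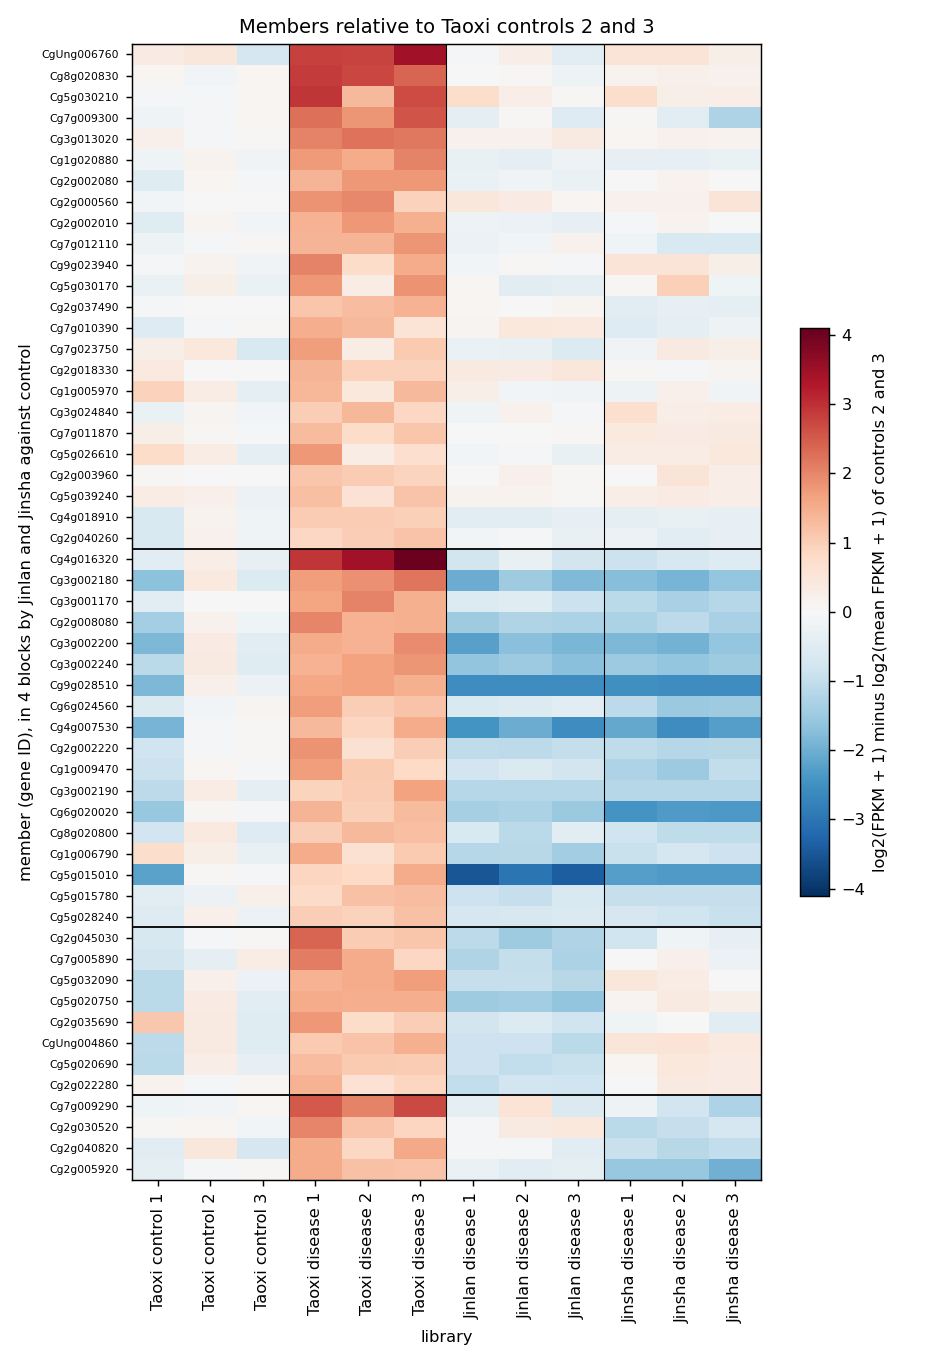
The 54 members (one per line) in the 12 libraries, coloured by log2(FPKM + 1) minus the log2 mean of Taoxi controls 2 and 3, in 4 blocks from top to bottom: Jinlan and Jinsha within 0.5 of the control (24), both 0.5 or more below (18), Jinlan only below (8), Jinsha only below (4). Taoxi control 1 is blue in most of the second block, like the Jinlan columns.

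The rise itself, which chose the members, had a median of 1.31 log2 units (quartiles 1.13 and 1.64), with 7 members at 2 or more. The median over all genes past the filter was 0.04. Cg4g016320 had the largest rise. It was at 0.658, 1.75 and 0.822 FPKM in Taoxi controls 1 to 3 and at 16.3, 23.6 and 35.7 FPKM in diseased Taoxi 1 to 3. In diseased Jinlan it was at 0.361, 0.864 and 0.360 FPKM, and in diseased Jinsha at 0.240, 0.461 and 0.598 FPKM. The lowest diseased Taoxi library thus stood far above each of the other 9, and the mean of 25.2 ± 9.79 FPKM (SD, n = 3) was 19.6 times that of controls 2 and 3, a difference of 3.52 log2 units.

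CgUng006760 came second, with a difference of 3.04 log2 units. Its controls were at 15.8, 17.6 and 7.30 FPKM, and its diseased Taoxi libraries at 93.8, 90.9 and 145 FPKM. Diseased Jinlan held it at 11.97 ± 3.14 FPKM and diseased Jinsha at 17.1 ± 1.89 FPKM (SD, n = 3), so the other 9 libraries shared one range and the 3 diseased Taoxi libraries lay above it. The next was Cg8g020830, at 4.26, 3.69 and 4.36 FPKM in the Taoxi controls and 35.6, 32.4 and 25.1 FPKM in diseased Taoxi, a difference of 2.67. Its 6 Jinlan and Jinsha libraries lay between 3.34 and 4.86 FPKM, about where the controls were.

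**Figure D2:**
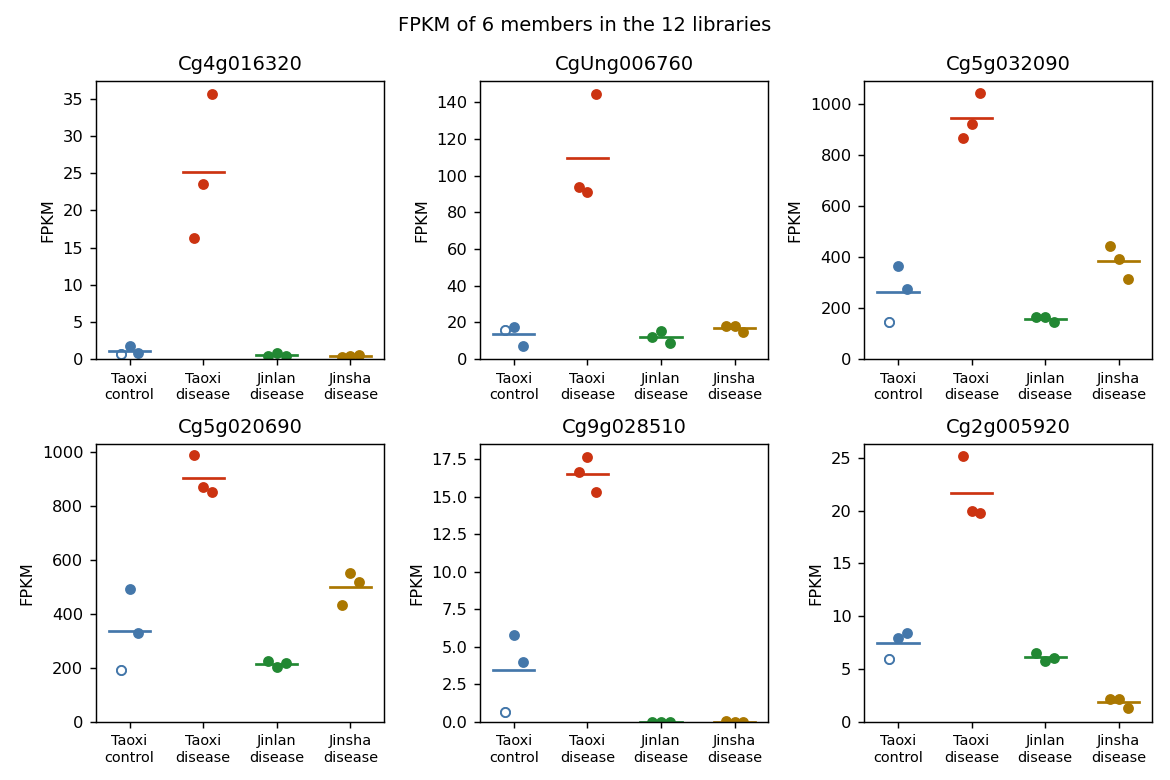
FPKM (linear axis from 0) of 6 members in each group, one point per library and a bar at the mean of the 3 libraries; the open circle is Taoxi control 1. The diseased Taoxi points lie above all others in each panel, while the other cultivars lie near the control (CgUng006760), near 0 (Cg4g016320, Cg9g028510), low in Jinlan (Cg5g032090, Cg5g020690) or low in Jinsha (Cg2g005920).

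Levels covered a wide span. In diseased Taoxi 16 members had means of 3 to 10 FPKM, 20 of 10 to 30, 9 of 30 to 100 and 9 of 100 FPKM or more, with a median of 15.9 FPKM. The median mean was 4.59 FPKM in Taoxi controls 2 and 3, 3.04 in diseased Jinlan and 2.64 in diseased Jinsha. Summed over the members, FPKM came to 5352, 4926 and 5630 in diseased Taoxi 1 to 3, which is 0.927%, 0.868% and 0.991% of the library's FPKM. The sums were 1165, 2342 and 1610 in Taoxi controls 1 to 3, 1166 to 1287 in diseased Jinlan and 1968 to 2173 in diseased Jinsha. The 6 highest members of a library carried 70.0% to 83.9% of its sum, so these sums describe a few abundant genes and not the list.

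The most abundant members were Cg5g032090 and Cg5g020690. Cg5g032090 was at 147, 366 and 273 FPKM in the Taoxi controls and at 867, 924 and 1046 FPKM in diseased Taoxi. Diseased Jinlan held it at 158 ± 12.3 FPKM and diseased Jinsha at 383 ± 66.4 FPKM (SD, n = 3). The Jinsha libraries were thus near Taoxi controls 2 and 3, and the Jinlan libraries near Taoxi control 1.

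Cg5g020690 had the same order of groups, at 190, 492 and 327 FPKM in the controls, 989, 870 and 849 FPKM in diseased Taoxi, 215 ± 10.4 FPKM in diseased Jinlan and 500 ± 59.9 FPKM in diseased Jinsha (SD, n = 3). CgUng004860 and Cg5g020750 shared this order. In all these genes control 2 was above control 3 and control 1 was the lowest Taoxi library. CgUng004860 stood at 139, 380 and 208 FPKM in the controls and 699 ± 105 FPKM in diseased Taoxi, and Cg5g020750 at 46.6, 127 and 73.9 FPKM and at 285 ± 3.99 FPKM (SD, n = 3). With all 3 controls in the control mean, these genes no longer met the rule, as is described with the limits of the list.

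Among the 18 members that lay below the control in both other cultivars were genes at or near 0 there. Cg9g028510, picked after its values were seen, was listed at 0 in 5 of the 6 Jinlan and Jinsha libraries and at 0.0335 FPKM in diseased Jinsha 1. In Taoxi it was at 0.651, 5.75 and 4.01 FPKM in the controls and 16.7, 17.7 and 15.3 FPKM in diseased fruit. Only Cg3g002190 was listed at 0 in all 6 of those libraries. Over all 54 members, 11 were under 1 FPKM in all 6, among them Cg3g013020 and Cg1g020880, which are not of these 18. Cg5g015010 lay furthest below the control in Jinlan, at -3.28 log2 units, and at -2.30 in Jinsha. It held 7.86, 41.3 and 38.4 FPKM in the Taoxi controls and 73.7, 70.9 and 117 FPKM in diseased Taoxi, against 3.21 ± 0.818 FPKM in diseased Jinlan and, in diseased Jinsha, 7.27 ± 0.249 FPKM (SD, n = 3). Both diseased groups thus lay below the lowest Taoxi library, control 1.

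A smaller set was close to silent outside diseased Taoxi. Cg3g013020 and Cg1g020880 were under 1 FPKM in all 9 other libraries. Cg3g013020 reached 3.29, 3.84 and 3.66 FPKM in diseased Taoxi, from 0.216, 0 and 0.0892 FPKM in the controls. Cg1g020880 reached 3.36, 2.74 and 4.30 FPKM, from 0.142, 0.432 and 0.167 FPKM. Both levels are near the 3 FPKM that the rule required, and differences on the log2(FPKM + 1) scale understate the change of genes this low.

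The 440 raised IDs as a whole looked different from the 54. Both other cultivars were 0.5 or more above the Taoxi control for 344 of the 440 (78.2%), and 1 or more above it for 299 (68.0%). Jinlan alone passed the ceiling for 14 and Jinsha alone for 28. Raised genes that stayed less than 0.5 above the Taoxi control in both other cultivars were thus the smaller part, as the plot of the 440 IDs shows. These counts follow from the rule and from a control mean that all the differences share.

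**Figure D3:**
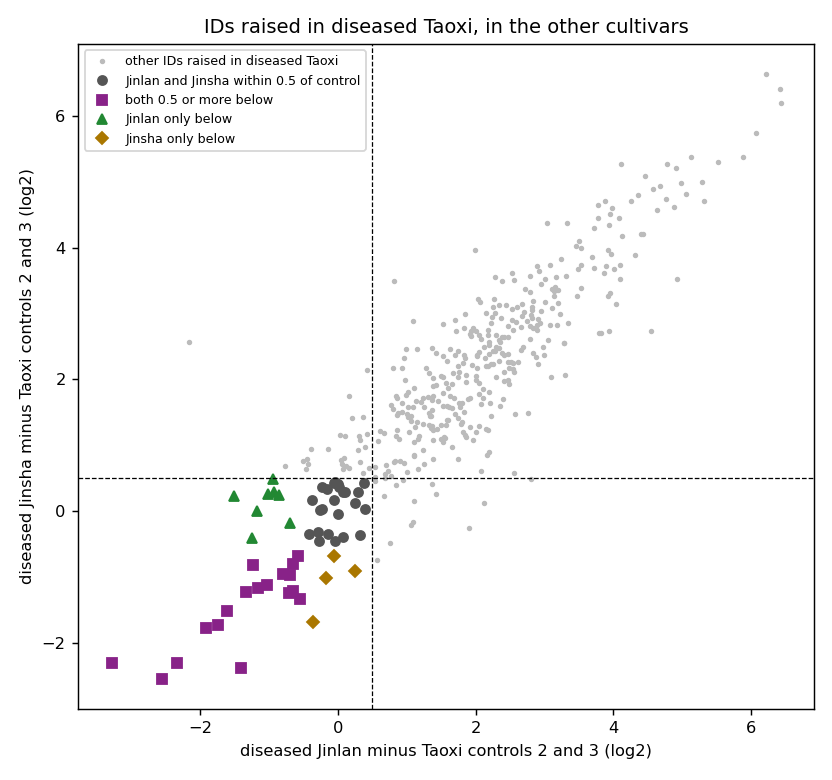
Difference of diseased Jinlan (horizontal) and of diseased Jinsha (vertical) to Taoxi controls 2 and 3, in log2 units, for the 440 Cg IDs raised in diseased Taoxi; coloured symbols are the 54 members by block and grey points the other 386. Dashed lines mark the ceilings of 0.5; both axes subtract the same control mean, so points spread along the diagonal in part for that reason.

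Every diseased Taoxi library was above all 9 other libraries for 48 of the 54 members. Over all genes past the filter 6.21% did so; the rule used 11 of these libraries, so nothing is read from this count. The 6 exceptions were Cg5g030170, Cg7g023750 and Cg5g026610, where a diseased Taoxi library fell within the range of Jinlan and Jinsha, and Cg2g035690, Cg1g006790 and Cg1g005970, where Taoxi control 1 reached that of diseased Taoxi. Cg7g023750 was also the member with a diseased Taoxi library below a control that the rule used, at 8.45 FPKM in diseased Taoxi 2 against 9.28 FPKM in control 2. For Cg5g026610, diseased Taoxi 2 and 3 also lay below Taoxi control 1, while diseased Taoxi 2 was barely above control 2. It was at 29.9, 10.14 and 13.5 FPKM in diseased Taoxi and 14.0, 10.095 and 5.85 FPKM in the controls.

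Diseased Taoxi libraries were not equally high. Diseased Taoxi 1 was the highest of the group for 26 members, diseased Taoxi 3 for 20 and diseased Taoxi 2 for 8. Over all genes past the filter the shares of diseased Taoxi 1, 3 and 2 were 29.98%, 34.1% and 35.9%, and among the other 386 raised IDs 44.8%, 39.4% and 15.8%, so diseased Taoxi 2 was seldom the highest among raised genes in general. The highest diseased library was at a median of 1.56 times the lowest (quartiles 1.32 and 1.94). On the log2(FPKM + 1) scale Cg5g030210 varied most, at 15.6, 4.41 and 13.0 FPKM, followed by Cg5g030170 at 8.37, 2.34 and 8.65 FPKM. Both were low in diseased Taoxi 2. Cg5g020750 varied least, at 290, 283 and 282 FPKM, and then Cg4g018910, at 57.0, 56.7 and 54.2 FPKM.

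Taoxi control 1, the library that the rule did not use, was below every diseased Taoxi library for 50 of the 54 members, where 33.7% of all genes past the filter and 26.9% of the other 386 raised IDs showed the same. The diseased Taoxi libraries in this count did choose the members, and the library resembled Jinlan, on whose low values the members were also chosen, so the count has no test. Relative to controls 2 and 3, control 1 lay 0.5 or more below for 25 members, within 0.5 for 25 and 0.5 or more above for 4, with a median of -0.46 log2 units. That median was 0.13 over all genes past the filter and 1.75 over the other raised IDs.

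Its position varied with the block, but the blocks and this position subtract the same mean of controls 2 and 3. Control 1 also resembled diseased Jinlan over all genes, so the counts by block are descriptions and nothing is read from them. Among the 18 members low in both other cultivars, control 1 lay 0.5 or more below controls 2 and 3 for 14, and among the 8 low in Jinlan alone for 6. Among the 24 near the control in both cultivars it did so for 5, and among the 4 low in Jinsha alone for none. The lowest were Cg5g015010 (-2.20) and Cg4g007530 (-1.89), the latter at 2.40 FPKM against 11.2 and 12.01 FPKM in controls 2 and 3 and 1.51 ± 0.487 FPKM in diseased Jinlan (SD, n = 3). The highest were Cg2g035690, at 7.91 FPKM against 4.29 and 1.91 FPKM, and Cg1g005970, at 10.6 FPKM against 6.38 and 3.66 FPKM. Control 1 was nearer to the diseased Jinlan mean than to controls 2 and 3 for 42 members (77.8%), and for 75.7% of all genes past the filter. Why this library lies there was not tested.

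**Figure D4:**
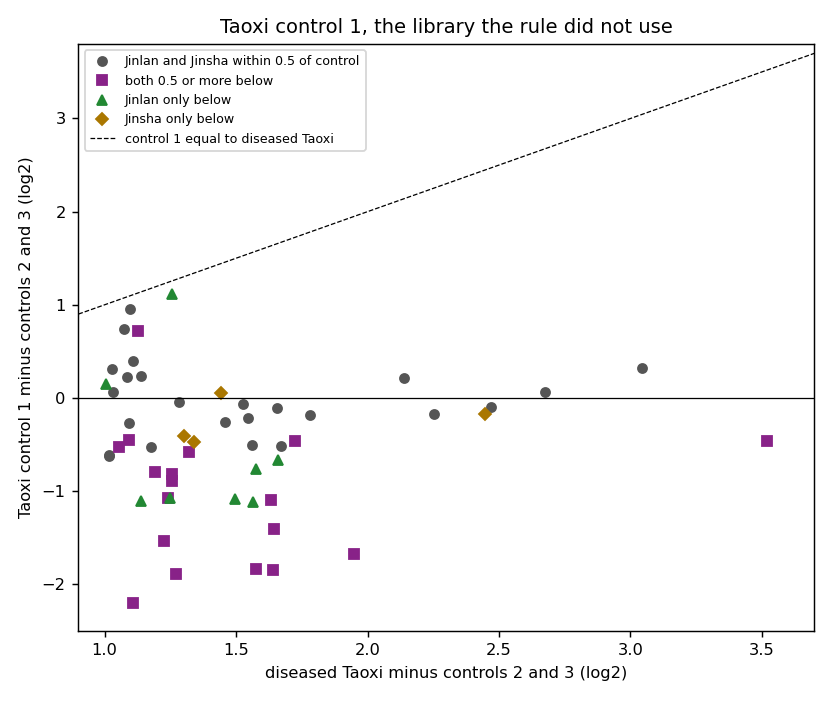
Difference of Taoxi control 1 to the mean of controls 2 and 3 (vertical, log2) against the rise in diseased Taoxi (horizontal, log2) for the 54 members, with symbols by block. Members on the dashed line would be as high in control 1 as in diseased Taoxi, and all 54 lie below it. Most members low in Jinlan, or in both other cultivars, lie below 0. Both axes and the blocks subtract the same mean of controls 2 and 3, which ties them together in part.

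Diseased Jinlan and diseased Jinsha were also compared with each other. The rule used both groups' values, through the ceilings, and these removed 14 raised IDs for Jinlan alone and 28 for Jinsha alone, so the members' counts and differences are descriptions and nothing is read from their balance. Past the threshold of a fit across the whole table (limma, adjusted p below 0.05 over 17421 genes), 10 members were higher and 12 lower in Jinlan, where 33.5% of all genes were higher and 16.0% lower. With median-ratio scaling, which brought the median difference of all genes from 0.11 to 0.0026 log2 units, 7 members were higher and 13 lower, and of all genes 21.3% were higher and 22.6% lower.

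The counts also moved with the libraries in the fit, which share an estimate of the spread. With Taoxi control 1 added, 4 members were higher and 6 lower (16.9% and 7.98% of all genes). With the Jinlan and Jinsha libraries alone, 10 were higher and 18 lower (35.7% and 17.5%). With 1 Jinlan or Jinsha library left out, 7 to 10 members were lower, as were 2287 to 2555 of the 17421 genes. The 7 came without diseased Jinlan 1 (13.5% of all genes).

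The members' median difference was -0.05 log2 units over all 54. Of these, 12 had passed the filter only through the diseased Taoxi libraries and were low in both cultivars compared here. Over the 42 that passed without those libraries, by a filter added after the values were seen, the median was -0.19, with 10 higher and 12 lower (34.2% and 16.3% of the 17006 genes then tested).

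Genes were named here only from members past the threshold whose Jinlan and Jinsha libraries did not overlap. Higher in Jinlan by the largest amounts were Cg2g005920 and Cg2g030520. Cg2g005920 stood at 6.52, 5.76 and 6.07 FPKM in Jinlan and 2.11, 2.16 and 1.32 FPKM in Jinsha, with no overlap. Its log2 difference was 1.33 ± 0.13 (SE), and its diseased Taoxi libraries stood at 25.1, 19.96 and 19.8 FPKM. Cg2g030520 stood at 3.26, 4.71 and 5.04 FPKM in Jinlan and 1.07, 1.33 and 1.78 FPKM in Jinsha, a difference of 1.15 ± 0.25 (SE). For both, Jinlan lay near the Taoxi control level and Jinsha below it.

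Lower in Jinlan by the largest amounts were Cg5g020750 and CgUng004860. Cg5g020750 stood at 35.7, 37.0 and 31.8 FPKM in Jinlan and 108, 130 and 118 FPKM in Jinsha, a difference of -1.74 ± 0.16 (SE). CgUng004860 stood at 162, 162 and 136 FPKM in Jinlan and 418, 430 and 385 FPKM in Jinsha, a difference of -1.42 ± 0.19 (SE). The groups did not overlap for either gene, which was a condition for naming them. Cg5g032090 and Cg5g020690, the most abundant members, came next in size, at -1.26 ± 0.14 and -1.21 ± 0.14 (SE). CgUng006760, with the second largest rise, had an interval of -1.13 to 0.11 log2 units. Cg4g016320 was under 1 FPKM in all 6 libraries compared, too low for its difference to be read on this scale.

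**Figure D5:**
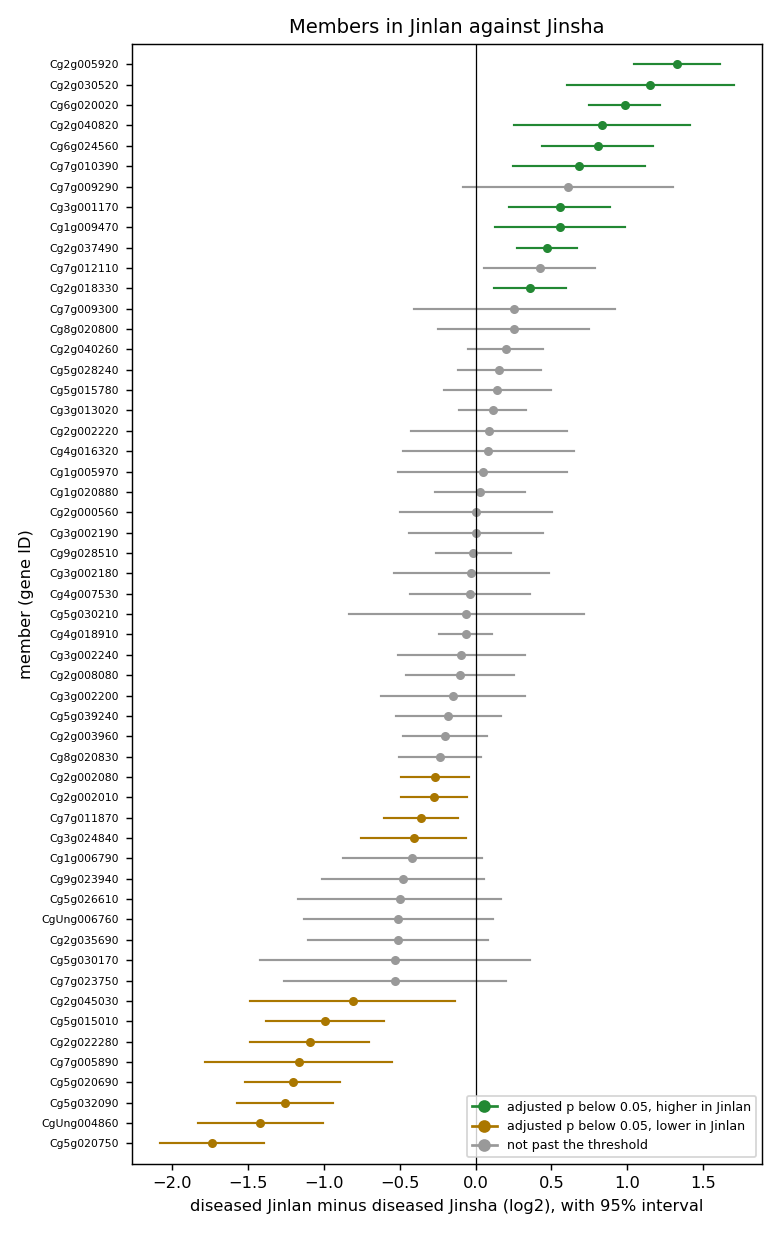
Difference of diseased Jinlan to diseased Jinsha in log2(FPKM + 1) for the 54 members, sorted by size, with the 95% interval of the limma fit (unadjusted). The 10 members higher in Jinlan past the threshold are green and the 12 lower are brown; the 4 largest differences downwards include the most abundant members.

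Several members had neighbouring ID numbers. In 6 groups, 14 of the 54 (25.9%) shared the prefix of another member and lay within 100 of its number, where 3.14% of all Cg IDs lay that near to a member. Raised IDs outside the list also had close numbers, such as Cg1g027560, Cg1g027570 and Cg1g027580. Their share was not computed, so close numbers are not shown to be particular to the members. The table holds no coordinates, and whether reads were split between similar copies of a gene is not given in the sources used here, so values within a group may not be independent. By prefix, Cg2g held 15 members of 4744 IDs (0.316%) and Cg7g 7 of 2406 (0.291%). Cg3g held 7 of 2767 (0.253%) and Cg5g 10 of 4584 (0.218%), where all 30123 Cg IDs held 54. The prefixes Cg6g, Cg8g, Cg9g and CgUng held 2 each.

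The longest run was Cg3g002180, Cg3g002190 and Cg3g002200, with Cg3g002240 close by. Cg3g002180 stood at 0.372, 4.81 and 1.98 FPKM in the Taoxi controls and 13.5, 15.1 and 19.2 FPKM in diseased Taoxi. Cg3g002200 stood at 0.464, 5.73 and 2.85 FPKM and at 14.1, 13.3 and 19.1 FPKM, nearly the same values. Cg3g002190 was lower, at 0.0642, 1.75 and 0.727 FPKM and then 3.22, 3.58 and 6.09 FPKM. In all 4 the order of the controls was the same, with control 2 highest and control 1 lowest, and all were under 1 FPKM in all 6 Jinlan and Jinsha libraries.

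The IDs between them, Cg3g002210, Cg3g002220 and Cg3g002230, missed the list by both their level and their rise, which was 0.26, 0.60 and 0.70 log2 units. Cg3g002230 reached 0.821, 1.04 and 1.41 FPKM in diseased Taoxi and was listed at 0 in all Jinlan and Jinsha libraries, and Cg3g002220 reached 0.547, 0.857 and 1.51 FPKM. Cg3g002210 stayed between 0.163 and 0.418 FPKM in diseased Taoxi, and its lowest control was control 3, not control 1.

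The pair Cg7g009290 and Cg7g009300 also ran in parallel, at 19.7, 14.1 and 23.0 FPKM and at 15.6, 11.1 and 19.8 FPKM in diseased Taoxi, from 2.66 and 2.47 FPKM at the mean of controls 2 and 3. Cg2g002080 and Cg2g002010 differed in level but not in pattern, at 667 ± 96.2 and 107 ± 14.5 FPKM in diseased Taoxi (SD, n = 3), or 3.19 and 3.003 times controls 2 and 3. Cg5g030170 and Cg5g030210, given above as the most variable members, were both low in diseased Taoxi 2, as was Cg5g030200 between them, no member, at 10.7, 3.61 and 10.497 FPKM. A neighbour without the rise was Cg8g020820, between the members Cg8g020800 and Cg8g020830, which stood at 17.9, 19.0 and 19.99 FPKM in diseased Taoxi and 19.0, 16.4 and 17.5 FPKM in the controls.

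The thresholds divided genes that lay close to each other. Just inside the rise of 1 were Cg2g022280 (1.004) and Cg2g040260 (1.02), and just outside were Cg7g015260 (0.98) and Cg1g011490 (0.97). At the Jinlan ceiling, Cg2g018330 (0.39) and Cg5g030210 (0.38) were inside and Cg7g011030 (0.53) and Cg1g013070 (0.57) outside. At the Jinsha ceiling CgUng004860 (0.48) and Cg9g023940 (0.44) were inside and Cg6g016240 (0.57) and Cg8g022690 (0.63) outside. The lowest members by level were Cg5g015780 and Cg1g020880, with means of 3.12 and 3.46 FPKM in diseased Taoxi, and Cg3g013010 and Cg8g002820 missed at 2.91 and 2.79 FPKM.

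How far the list holds depended mostly on the Taoxi libraries. When each of the 11 libraries of the rule was left out in turn, 25 of the 54 met the rule each time, among them Cg4g016320, Cg8g020830, Cg5g032090, Cg9g028510 and Cg3g002180. The sets then held 49 to 67 genes, and shared 39 of the 54 without Taoxi control 3, 41 without Taoxi control 2 and 41 without diseased Taoxi 1, but 50 or more when a Jinlan or Jinsha library was left out. Control 2 was above control 3 for 37 members (68.5%), against 43.4% of all genes past the filter. With control 1 added to the control mean the rule gave 77 genes and kept 43 of the 54. Cg5g032090, Cg5g020690, CgUng004860 and Cg5g020750 were among the 11 lost.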

How the data were processed

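Per the labels' protocols, a SMARTer mRNA-seq kit was used for the libraries. The authors deposited 1 table of FPKM values. Not given in the sources used here are the aligner, counting tool, genome build and annotation. Of its columns, 12 matched the labelled samples by title, and 6 matched none and were not used. The members, the lists and the tests were chosen with earlier results of these data known. The rule was applied to the deposited FPKM with no scaling between libraries.

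Diseased Jinlan and Jinsha were compared on log2(FPKM + 1) in R 4.3.3 with limma 3.58.1 (a trended empirical Bayes prior) in 1 fit of the 4 groups, whose calls are descriptions for the members because the rule used both groups' values, over 11 libraries, all but Taoxi control 1. The fit covered 17421 genes that reached 1 FPKM in 3 or more of the 12 libraries, with two-sided Benjamini-Hochberg adjusted p-values and a threshold of 0.05. On data simulated for this comparison over 17421 genes, it recovered 96 of 100 genes changed by 1 log2 unit and 100 of 100 changed by 2, with 8 false calls among 204. The simulation drew independent normal noise per gene, changed only these genes and had no shift between libraries. Its rate of false calls therefore need not hold for the measured data, where far more genes were called.

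By the naming rule, with IDs only, the 2 members at each extreme of a measure are named, as are the IDs next to each threshold and the longest run of ID numbers. Between Jinlan and Jinsha, the extremes were taken among members past the threshold whose groups did not overlap. Cg8g020830, Cg9g028510, Cg3g013020, Cg1g020880, the 6 exceptions and the close ID pairs were added after their values were seen. FPKM keeps no read totals, so no counting interval is given. Alternatives covered pseudocount, filter, scaling, thresholds, libraries in the fit and single libraries left out. Python 3.11.15 and matplotlib 3.10.9 were also used.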

Additional observations from a re-analysis of the deposited data

How the results depend on the processing

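The number of members was 28 with a ceiling of 0 for Jinlan and Jinsha and 89 with a ceiling of 1; under the other settings it stayed between 38 and 77. Between Jinlan and Jinsha, all 12 libraries in the fit gave 4 members higher and 6 lower, and the Jinlan and Jinsha libraries alone 10 and 18. Leaving out 1 Jinlan or Jinsha library gave 7 to 10 higher and 7 to 10 lower, and medians of -0.109 to -0.0124. The members' median was -0.12 with a pseudocount of 0.1, with median-ratio scaling and with quantile normalization, -0.0902 with upper-quartile scaling, and -0.0947 with a filter at 5 FPKM, which 43 members passed. It was -0.19 with a filter that left out diseased Taoxi, added after seeing the data. The 4 genes named for the largest differences kept their direction and side of the threshold under all 19 alternatives. They were chosen as the extremes among members past the threshold in these same libraries, so this follows in part from their choice.

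Deviations of same-numbered Jinlan and Jinsha libraries from their group means correlated at 0.023, -0.16 and -0.063 across genes. Differently numbered libraries correlated at -0.10 to 0.148. None of the same-numbered values exceeded the highest of the others. These few values cannot exclude a pairing, and the Taoxi libraries were not checked. With the replicate block, 10 members were higher and 10 lower.

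Read depth is unknown, so how much counting error adds to members of a few FPKM cannot be given.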

Other observations

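The rule took Cg IDs, and 7 of the 2740 NewGene IDs met the same thresholds. NewGene_1056 had the largest difference of diseased Taoxi to controls 2 and 3, 2.94 log2 units. It was at 0.0649, 0.634 and 0.782 FPKM in the Taoxi controls, 10.98, 9.34 and 15.9 FPKM in diseased Taoxi, and at most 0.103 FPKM in the Jinlan and Jinsha libraries. NewGene_4265 followed at 1.97, with 6.06, 5.36 and 7.04 FPKM in diseased Taoxi and 0.458, 0.987 and 0.663 FPKM in the controls. These values are descriptions, since the same measure chose the IDs.

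Between the members Cg5g020690 and Cg5g020750 in ID number lies Cg5g020710, which missed the list by its Jinsha ceiling, at 0.72 log2 units above the control. It stood at 3.41, 5.42 and 4.97 FPKM in the Taoxi controls and 55.0, 69.9 and 65.1 FPKM in diseased Taoxi, a difference of 3.38. Diseased Jinlan held 3.26, 4.09 and 3.46 FPKM and diseased Jinsha 6.79, 11.1 and 9.71 FPKM. Its rise was larger than that of all members but Cg4g016320, and it was singled out after its values were seen.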
